A study of Mus musculus with 16 samples.

Results

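Renin-producing juxtaglomerular cells were studied in kidney suspensions enriched for glomeruli from 16 mice, with 1 single-cell library per mouse. A barcode was taken as a juxtaglomerular cell when it held 200 to 7000 detected genes and at most 20% mitochondrial unique molecular identifiers (UMIs, counted transcript molecules), when Ren1 made up at least 0.5% of its UMIs with at least 5 UMIs, when it held at least 1 UMI of Akr1b7, Rgs5 or Pdgfrb, and when it held 0 UMIs of Pecam1, Ptprc, Cubn and Epcam. This rule found 398 cells among 116439 barcodes, of which 53253 were within the quality limits. The cells were thus chosen by the measured values of these 8 genes, whose levels within the cells are given as a description only.

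The control mice were BTBR +/+ and the diabetic nephropathy (DN) mice were BTBR ob/ob, which lack functional leptin and become obese and diabetic. Both genotypes also carried the Gt(ROSA)26Sor tdTomato and EGFP reporter and a Cre transgene active in podocytes, so that the controls shared these alleles with the DN mice. There were 8 groups of 2 mice, 1 for each genotype and sex at 6 and at 12 weeks of age, and the study treated 6 weeks as the onset and 12 weeks as an early stage of disease. The suspension came from both kidneys of a mouse after removal of the papilla, digestion with a cold-active protease and a Percoll gradient that depleted proximal tubule, so shares of cells are shares of this suspension. Lep, the mutated gene, is made by fat cells and had 23 UMIs over all barcodes of all libraries, too few to check the genotype labels.

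Juxtaglomerular cells are modified smooth muscle cells in the wall of the afferent arteriole at the entrance of the glomerulus. They store renin in granules related to lysosomes and release it when perfusion pressure or salt delivery falls, or when sympathetic nerves act on beta-adrenergic receptors. Cyclic AMP drives renin synthesis and release, whereas calcium, angiotensin II and endothelin restrain them. Renin cleaves angiotensinogen and so starts the cascade that forms angiotensin II. Smooth muscle cells further upstream in the arteriole, and mesangial cells, can regain renin expression under sustained demand.

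The sequences before the starts of the rule's leading genes, Ren1 (renin) and Akr1b7 (an aldo-keto reductase that marks renin cells), and of a pair of neighbouring genes that were higher in DN cells, S100a4 and S100a6, are shown because the results turn on these genes. Each covers the 250 bases before the RefSeq start of transcription on the plus strand of GRCm38.p6, at chr1:133350424-133350673 for Ren1, chr6:34412112-34412361 for Akr1b7, chr3:90603520-90603769 for S100a4 and chr3:90612644-90612893 for S100a6. Capitals mark a TATAAA box on either strand.
Ren1: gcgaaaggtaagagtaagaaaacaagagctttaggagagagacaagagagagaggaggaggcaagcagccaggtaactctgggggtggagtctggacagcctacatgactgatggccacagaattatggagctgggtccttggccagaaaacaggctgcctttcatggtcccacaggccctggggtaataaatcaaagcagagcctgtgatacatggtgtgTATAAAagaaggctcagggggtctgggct
Akr1b7: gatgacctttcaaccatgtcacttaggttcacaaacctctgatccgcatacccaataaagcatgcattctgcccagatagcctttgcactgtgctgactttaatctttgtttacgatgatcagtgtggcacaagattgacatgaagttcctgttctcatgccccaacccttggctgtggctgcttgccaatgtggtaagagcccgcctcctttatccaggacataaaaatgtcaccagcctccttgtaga
S100a4: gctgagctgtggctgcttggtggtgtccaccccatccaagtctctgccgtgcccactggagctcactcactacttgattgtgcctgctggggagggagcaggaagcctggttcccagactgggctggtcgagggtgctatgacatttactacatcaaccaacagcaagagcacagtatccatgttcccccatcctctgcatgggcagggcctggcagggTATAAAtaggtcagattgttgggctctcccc
S100a6: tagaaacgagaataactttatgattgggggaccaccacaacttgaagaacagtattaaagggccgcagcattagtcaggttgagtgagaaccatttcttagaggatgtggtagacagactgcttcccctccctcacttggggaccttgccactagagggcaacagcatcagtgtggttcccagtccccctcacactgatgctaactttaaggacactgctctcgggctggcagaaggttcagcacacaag
TATAAA lay 29 bases before the start of Ren1 and 31 bases before that of S100a4. The windows of Akr1b7 and S100a6 did not hold these letters. Over 32851 mouse promoter windows of the 250 bases before a start, 12.4% held TATAAA on either strand. TGACG, the core of the cyclic AMP response element, was held by 17.8% of the windows and by none of the 4 shown. S100a4 and S100a6 start 9124 bases apart on chromosome 3.

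By the selection itself, Ren1 made up 0.517 to 33.5% of a cell's UMIs with a median of 2.34%. Among the partner genes, which the rule also used, Akr1b7 was found in 352 cells (88.4%), Rgs5, a G protein signalling regulator of mural cells, in 384 (96.5%), and Pdgfrb, the pericyte growth factor receptor, in 262 (65.8%). Of genes outside the rule, at least 1 UMI of smooth muscle myosin heavy chain (Myh11) and 2 of smooth muscle actin (Acta2) were found together in 356 (89.4%). The same limits define the low-renin smooth muscle cells below, so they show a smooth muscle character and do not test the juxtaglomerular label. Itga8 and Ptn, both mesangial, occurred together in 101 (25.4%). The cells held 537 to 42055 UMIs with a median of 7520, a median of 2682 genes, and a median of 9.45% mitochondrial UMIs.

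Near the threshold lay 20 cells with Ren1 at 0.5 to 0.6% of UMIs just inside it and 21 barcodes at 0.4 to 0.5% just outside it. Of 455 barcodes within the quality limits and above the renin threshold, 450 held a partner gene and 52 of these were dropped for a UMI of a lineage gene, most often Epcam (37) or Cubn (9). A further 39 barcodes passed the renin threshold outside the quality limits. A barcode of a tubule or endothelial cell joined to a renin cell would be dropped here only if it held a UMI of Cubn, Epcam or Pecam1. No separate doublet caller was run. A second, near-identical renin gene, carried by some mouse strains, would be counted as Ren1, and its presence was not tested.

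Markers of other cell types were summed over the juxtaglomerular cells. Mki67, Lum and C1qa had 0 UMIs in the juxtaglomerular cells and Tyrobp had 1. The summed level of 11 immune markers ranged from 0 to 178 CPM (counts scaled to a common total for each library) in control libraries and from 0 to 54.2 CPM in DN libraries, and that of 5 erythroid markers from 0 to 54.3 and from 0 to 14.7 CPM. The 11 endothelial markers summed to 134 to 489 CPM in control and 206 to 327 CPM in DN libraries. Podocyte markers (7 genes) summed to 66.9 to 1600 and 128 to 169 CPM, fibroblast markers (9 genes) to 517 to 752 and 623 to 929 CPM, mitotic genes (10) to 178 to 432 and 229 to 468 CPM, and mesangial markers (9 genes) to 3830 to 4860 and 3570 to 6740 CPM. Mesangial and fibroblast markers had medians of 4120 and 554 CPM in control and 4480 and 773 CPM in DN juxtaglomerular cells, above the 1160 and 157 CPM and 1340 and 161 CPM over all barcodes, and 1 control library gave the 1600 CPM of podocyte markers. Most UMIs of the fibroblast sum were of Gsn (2061 in all juxtaglomerular cells), with 1 of Dcn and 0 of Lum. The most abundant mitotic genes were Tubb5, Pcna and Stmn1. Tubule markers were lower in DN at the median. The 13 proximal tubule markers summed to 371 to 2940 CPM (median 855) in control and 275 to 699 CPM (median 379) in DN libraries, and the 16 other tubule markers to 163 to 1570 (median 705) and 258 to 654 CPM (median 371).

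Libraries fell into a batch of 12 and a batch of 4 by the list of cell barcodes they shared. The 4 were replicate 1 of each female group and held 10510855 to 21728793 UMIs, against 83410397 to 125551519 in the other 12, which included all male libraries. Each batch held both genotypes, and pairs of libraries in a batch shared 7 to 55 barcodes. No barcode of a juxtaglomerular cell was shared between libraries. The juxtaglomerular cells were deeper in DN, with a median of 9290 UMIs against 5910 in control.

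The number of juxtaglomerular cells was compared between genotypes first. A barcode with little Ren1 leaves the count, so the number of cells and their Ren1 level cannot be fully told apart. Per library, 7 to 42 cells were found in control and 14 to 44 in DN mice. At 6 weeks they made up 0.518% and 1.28% of the barcodes within the quality limits in the control females, 0.588% and 0.362% in the control males, 0.933% and 1.57% in the DN females, and 1.03% and 1.28% in the DN males. The corresponding shares at 12 weeks were 0.307% and 0.536%, 0.259% and 0.805%, 0.485% and 0.822%, and 0.81% and 0.722%. At 6 weeks 1 control female library reached into the DN range, and at 12 weeks 1 control female and 1 control male library did.

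The share averaged 0.581% ± 0.331 (SD, n = 8) in control and 0.955% ± 0.337 (SD, n = 8) in DN libraries. The difference was 0.374 percentage points with DN higher in 7 of 8 pairs of equal sex, age and number (exact two-sided permutation test within sex and age, p = 0.0278, Benjamini-Hochberg adjusted over 6 tests 0.0571), so it did not pass the correction. The replicate numbers were not taken to pair the mice, so counts of pairs here and below are a description only. Within 6 weeks the means were 0.686% ± 0.405 (n = 4) and 1.2% ± 0.283 (n = 4; exact permutation p = 0.114, adjusted 0.137). Within 12 weeks they were 0.477% ± 0.25 (n = 4) and 0.709% ± 0.156 (n = 4; exact permutation p = 0.2, adjusted 0.2). Within an age the labels were permuted without regard to sex (70 arrangements), where the smallest p was 0.0286. Over barcodes with 0 UMIs of Cubn and Epcam as the denominator, the difference was 0.603 points (exact permutation p = 0.133).

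Ren1 over all barcodes of a library is a separate measure that does not use the threshold, although the chosen cells held 65.1 to 94.8% of a library's Ren1 UMIs. It averaged higher in DN at both ages. At 6 weeks it stood at 276 and 132 CPM in the control females, 80.2 and 85.9 CPM in the control males, 438 and 334 CPM in the DN females, and 165 and 387 CPM in the DN males. At 12 weeks the values were 74.2 and 65.0 CPM, 47.3 and 51.4 CPM, 105 and 249 CPM, and 241 and 137 CPM in the same order. At 12 weeks the groups did not overlap, and at 6 weeks only the control female at 276 CPM reached into the DN range.

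Control libraries averaged 101 ± 75 CPM (SD, n = 8) and DN libraries 257 ± 121 CPM (SD, n = 8). The means of log2 CPM, which the test compared, differed by 1.43, a ratio of 2.69 between geometric means, with DN higher in 8 of 8 pairs (exact permutation p = 0.00154, the smallest the design gives, adjusted 0.00926). On the same log2 scale the ratio of geometric means was 2.47 at 6 weeks (arithmetic means 143 ± 91.1 against 331 ± 119 CPM, n = 4 each, exact permutation p = 0.0571, adjusted 0.0857) and 2.93 at 12 weeks (59.5 ± 12.4 against 183 ± 72.9 CPM, n = 4 each, exact permutation p = 0.0286, adjusted 0.0571), both with labels permuted without regard to sex. Within the batch of 12 libraries the log2 difference was 1.71 (exact permutation p = 0.0139). The 4 libraries of the other batch hold 1 mouse per group, so no test was made within it. In this measure, more renin cells and more renin RNA per cell cannot be told apart, and it moves with the other cells of the suspension.

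Within the juxtaglomerular cells, whose selection bounds it from below, Ren1 took 107000 and 42200 CPM of the cells' UMIs in the 6-week control females, 84200 and 26100 in the 12-week control females, 57800 and 35100 in the 6-week control males, and 54500 and 33600 in the 12-week control males. In DN mice it took 55800 and 57300, 47000 and 42500, 36500 and 59300, and 67000 and 47800 CPM in the same order. The groups overlapped throughout. Normalised CPM are CPM scaled further by TMM factors computed over all genes. Over the 15 libraries with at least 10 cells, normalised levels were 47000 ± 18500 CPM in control (SD, n = 7) and 53700 ± 11300 CPM in DN (SD, n = 8), a log2 difference of 0.20 ± 0.21 (SE) that the rule bounds and that is given with no test.

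**Figure D1:**
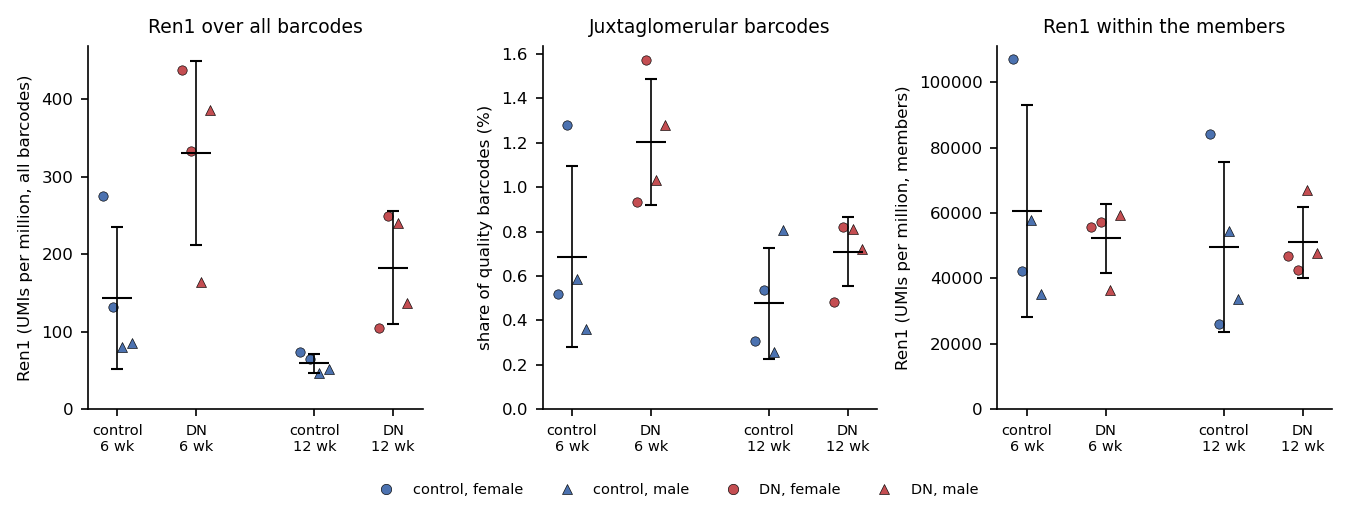
Each point is 1 library (blue control, red DN, circles female, triangles male), with mean and SD bars by genotype and age. The left panel gives Ren1 over all barcodes in CPM, where the DN mean was 257 and the control mean 101 CPM, the middle panel the juxtaglomerular share of barcodes within the quality limits in percent, and the right panel Ren1 in CPM within the juxtaglomerular cells, where the genotypes overlapped.

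Levels were then set beside those of 1334 low-renin smooth muscle cells (same quality limits and zero genes, Ren1 under 0.5%, at least 1 UMI of Myh11 and 2 of Acta2) and 3543 mesangial cells (Itga8 and Ptn without Myh11). These contrasts follow from the rules and were not tested. Means are over the 15 libraries in normalised CPM. The 20 genes named were those with the highest ratio over low-renin smooth muscle among 3050 genes of at least 50 CPM. Ren1 led with 50600 against 477 CPM, a ratio of 106. Akr1b7 followed the same pattern at 1960 against 360 CPM and was higher in 15 of 15 libraries.

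Gja5, the connexin 40 of renin cells and endothelium that couples pressure sensing to renin release, stood at 128 CPM against 12.0 in low-renin smooth muscle and was higher in 14 of 15 libraries. It was higher still in mesangial cells, at 454 CPM. Gja4, the arterial connexin 37, ran the other way between the mural classes at 0.603 times the smooth muscle level, with the juxtaglomerular cells higher in 1 of 15 libraries. Agtr1a, the angiotensin II receptor that restrains renin release, stood at 0.961 times the smooth muscle level and 0.162 times the mesangial level.

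Ctsb, the lysosomal protease cathepsin B, which can process prorenin, stood at 582 against 208 CPM and was higher in 15 of 15 libraries. Sdf2l1, a chaperone cofactor of the endoplasmic reticulum, stood at 74.4 against 13.5 CPM (12 of 15), and Eno3, the muscle enolase, at 258 against 82.0 CPM (15 of 15). Fam46a (403 against 90.2 CPM) and Mapt, the microtubule protein tau (174 against 40.4 CPM), were each higher in 15 of 15. The collagen Col13a1 stood at 271 against 73.4 CPM. Other leading genes were higher still in mesangial cells, namely Col12a1 (102 against 26.1 CPM, and 226 in mesangial cells), the prostaglandin transporter Slco2a1 (390 against 139, and 432), the sodium, potassium and chloride cotransporter Slc12a2 (374 against 134, and 1250) and Sh3bp5 (202 against 29.3, and 252). The remaining 7 leading genes were Mdk, Gm12840, Plpp5, Atp8a1, Pcp4, Clu and Cgnl1, with ratios over low-renin smooth muscle of 2.71 to 4.63.

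Acta2 was at 0.943 and Myh11 at 0.857 times the level of low-renin smooth muscle, which both genes define, and Tagln (transgelin) was at 0.951 times. Acta2 was at 71.5 times the level of mesangial cells. Rgs5 was at 0.523 times the smooth muscle level and higher in 0 of 15 libraries. Itga8 was at 0.109 times the mesangial level.

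**Figure D2:**
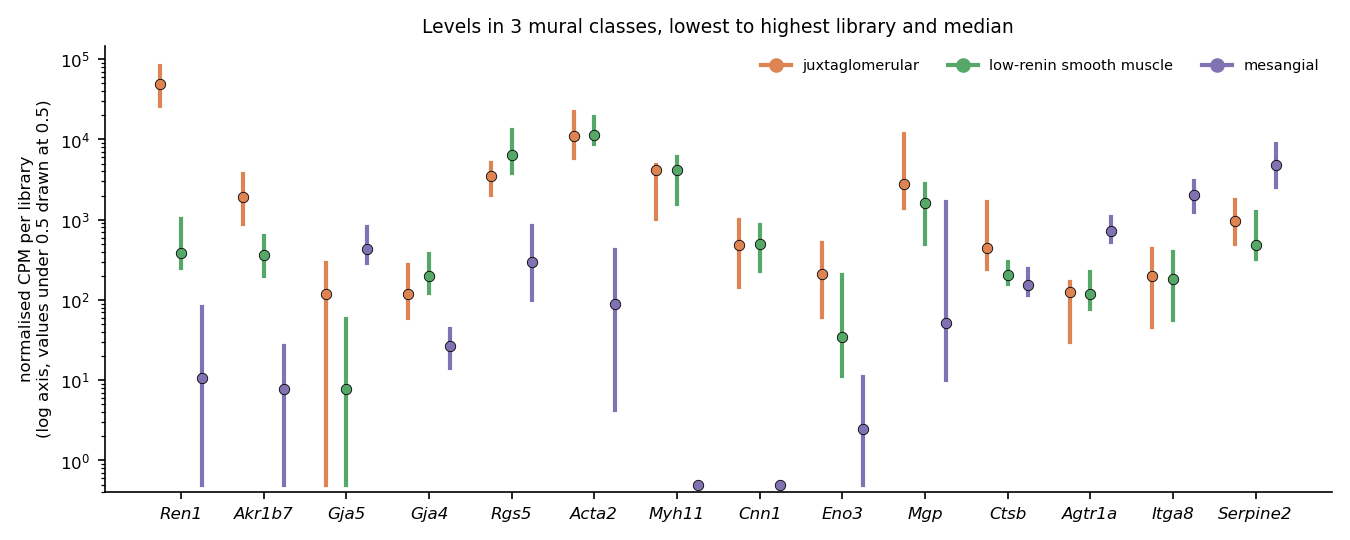
Median (points) and lowest to highest library (lines) of normalised CPM on a log axis for 14 genes in juxtaglomerular, low-renin smooth muscle and mesangial cells, with values under 0.5 drawn at 0.5. Ren1 and Akr1b7 were highest in juxtaglomerular cells, Acta2 and Myh11 were near each other in juxtaglomerular and low-renin smooth muscle cells, and Gja5, Agtr1a and Itga8 were highest in mesangial cells.

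The cells were not alike. They were placed in tiers of Ren1 share, with 181 cells at 0.5 to 2%, 91 at 2 to 5%, 79 at 5 to 10% and 47 above 10%, of which 101, 48, 55 and 33 came from DN mice. Median depth was 6810, 7700, 7370 and 8490 UMIs. Levels are CPM with the Ren1 UMIs left out of the total, so that renin itself does not dilute them. The tiers come from the same cells as the levels and the differences were not tested. The number of libraries says in how many of 15 the cells at 5% or more were above or below those under 2%.

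Akr1b7 was higher with more renin, at 976, 1390, 2730 and 5580 CPM from the lowest to the highest tier, higher in 15 of 15 libraries. Gja5 stood at 108, 94.3, 187 and 352 CPM (higher in 13, lower in 1). Adcy3, an adenylyl cyclase that makes cyclic AMP, stood at 36.7, 35.0, 75.3 and 164 (higher in 13, lower in 0). As lists, renin cell identity genes had a median ratio of the highest to the lowest tier of 0.879 (4 above and 7 below 1), cyclic AMP receptors and cyclases 1.0 (6 and 6), and cyclic AMP kinases and nuclear factors 0.835 (3 and 9). Adrb1, the beta-1 adrenergic receptor through which sympathetic nerves trigger renin release, was at 1.47, 6.73, 7.85 and 79.4 CPM, but on only 44 UMIs, of which 40.9% came from 1 library. Agtr1a stood at 128, 92.9, 157 and 141 CPM (higher in 9, lower in 6), and Gnas, the stimulatory G protein, at 1220 in the lowest and 1380 in the highest tier (higher in 12, lower in 3). Gja4 ran downward at 166, 151, 141 and 84.4 CPM (lower in 12 of 15).

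Protein folding and secretion genes differed between tiers when cells were pooled, with less in single libraries. Of 30 genes of endoplasmic reticulum protein folding with at least 100 UMIs, 29 were higher above 10% renin than under 2%, with a median ratio of 1.83 on cells pooled over libraries. Per library, these genes were higher at 5% or more renin in 6 to 12 of 15 libraries (median 9) and lower in 3 to 8 (median 5). Hspa5, the main chaperone of that compartment, stood at 547, 520, 553 and 1630 CPM, so that the step lay at the last tier, and it was higher in only 8 of 15 libraries. Manf (183 to 504), Sec61b (196 to 409) and Sdf2l1 (55.7 to 223) had the same shape. Ctsb stood at 295, 350, 576 and 2010 CPM and was higher in 14 of 15 libraries. The secretory granule and lysosome genes as a list had a median ratio of 1.32, with 16 of 23 above 1, and per library the median gene was higher in 8 and lower in 7 of 15. Cpe, the prohormone-processing carboxypeptidase E, was the opposite at 611, 531, 496 and 218 CPM (lower in 14 of 15).

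Contractile genes ran against renin. Of 22 such genes, 21 were lower above 10% renin than under 2%, with a median ratio of 0.512, and per library the median gene was lower in 12.5 and higher in 2.5 of 15. Mylk, the myosin light chain kinase, stood at 2930, 2610, 2230 and 1030 CPM and was lower in 15 of 15 libraries. Acta2 (14300, 14800, 12700 and 8400), Tagln (11200, 12000, 9930 and 6020) and Myh11 (4750, 4430, 3630 and 1960) were lower in 14, 13 and 11 of 15. Pln, the calcium pump inhibitor phospholamban, went from 1090 to 320 and Cnn1 (calponin) from 625 to 233 CPM.

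Regulators of the renin signal and matrix genes split. Prkg2, a cyclic GMP-dependent kinase that restrains renin, went from 126 to 27.3 and Ramp1, a partner of the CGRP receptor, from 145 to 29.8 CPM, each lower in most libraries (13 and 14 of 15). As lists, renin-inhibiting signals had a median ratio of 0.988 (6 above and 9 below 1) and nitric oxide and cyclic GMP genes 0.903 (2 and 4). Ednrb, an endothelin receptor, went the other way from 369 to 541 CPM (higher in 11, lower in 3). Rgs5, which is part of the rule, went from 4160 to 1310. Matrix genes had a median ratio of 0.629 with 10 of 30 above 1, but Mgp, the matrix Gla protein that inhibits calcification, stood at 2590, 2720, 6570 and 16400 CPM and was higher in 15 of 15 libraries. Col18a1 went from 650 to 1390 (higher in 14). Mapt (90.9, 156, 320 and 494), Fam46a (238, 335, 557 and 950) and Sh3bp5 (170 to 747) also went with renin. Nuclear genes of oxidative phosphorylation had a median ratio of 1.09, the 13 mitochondrial genes 0.844, and mural genes 0.766.

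**Figure D3:**
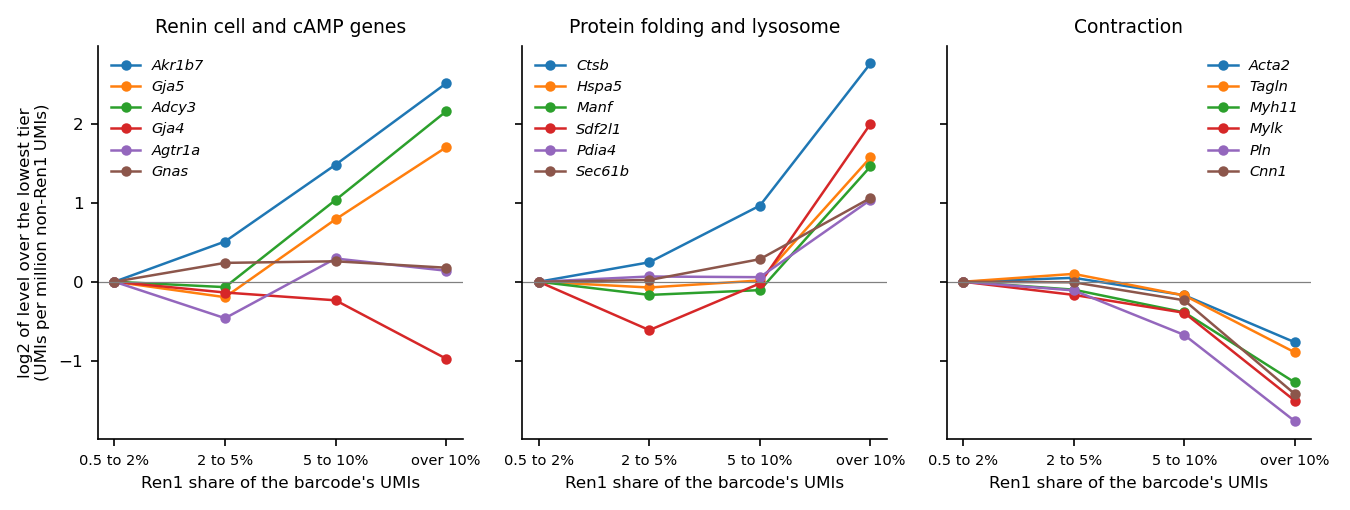
Log2 of the CPM level without Ren1 UMIs in the total over that of the lowest tier, against the 4 tiers of Ren1 share, for genes of the renin program, genes of protein folding and lysosome, and contractile genes. Akr1b7 and Ctsb climbed through the tiers, Hspa5 and Sdf2l1 stepped up above 10% renin, and the 6 contractile genes ended below their start.

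Genotypes were compared gene by gene on UMIs summed per library, in 7 control and 8 DN libraries with at least 10 cells (154 control and 237 DN cells). One control female of 12 weeks with 7 cells was left out of these fits. In the edgeR quasi-likelihood fit, 4002 genes had enough counts to be tested, and a gene was called at a Benjamini-Hochberg adjusted p under 0.05. For the mean of both ages, 41 genes (1.02%) were called, 26 higher (0.65%) and 15 lower (0.375%) in DN. All 41 had the same sign at both ages. At 6 weeks 3 genes were called (0.075%) and at 12 weeks 14 (0.35%), and Fn1 and Aldh1a2 were called at both. Groups did not overlap over all 15 libraries for 3 of the 41, namely Cpe, Aldh1a2 and Fstl1, against 8 (0.2%) over all 4002 genes. Leaving out 1 library at a time gave 13 to 68 calls for the mean of ages. Within the batch of 12 libraries 97 genes were called, among them all 41. Mouse gene coordinates below are those of mm10 (GRCm38), and log2 fold changes are DN over control for the mean of ages, with SE, unless an age is named. Levels of genes in juxtaglomerular cells are normalised CPM, whose factors differ from those of the fit. Summed markers, levels in barcodes with Cubn UMIs and the floor for genes at 0 are plain CPM.

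S100a6 (chr3:90612882-90624181), a calcium-binding protein, was at 179, 714, 475 and 859 CPM in 6-week controls and at 427, 195 and 258 CPM in 12-week controls. In DN it was at 740, 2210, 1430 and 1350 CPM at 6 weeks and at 1610, 2180, 2190 and 1930 CPM at 12 weeks. The groups overlapped at 6 weeks and were far apart at 12 weeks. The log2 fold change was 1.93 ± 0.23 (adjusted p = 4.13e-05), and it was 2.65 at 12 weeks (adjusted p = 0.000333) against 1.21 at 6 weeks (adjusted p = 0.295).

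S100a4 (chr3:90603771-90606045), its neighbour and a marker of motile and fibroblast-like cells, was at 0, 93.1, 58.1 and 114 CPM in 6-week controls and 44.1, 12.2 and 17.2 CPM in 12-week controls. In DN it was at 41.1, 278, 141 and 225 CPM at 6 weeks and 210, 712, 282 and 386 CPM at 12 weeks. It rose by 2.48 ± 0.34 (adjusted p = 0.000134), with a change of 3.84 at 12 weeks (adjusted p = 0.000502). S100a11 went from 281 ± 107 to 573 ± 164 CPM (0.93 ± 0.19, adjusted p = 0.0167). Anxa2, the annexin that pairs with S100 proteins at membranes, went from 69.6 ± 47.8 to 173 ± 56.4 CPM (1.23 ± 0.27, adjusted p = 0.0225). These 4 genes rose. No gene list held the S100 family, so its other members were not tallied.

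Matrix genes made up part of the increase. Of 27 extracellular matrix genes tested, 3 rose (Fn1, Ctgf and Mgp), none fell, and 23 had a positive fold change, with a list median of 0.477 beside -0.014 over all genes and 0.65% of all genes called higher. The summed fibroblast markers also had a higher median in DN (773 against 554 CPM, ranges 623 to 929 and 517 to 752), and their part in this was not tested. Gsn led that sum with 2061 UMIs, followed by Col1a2 (217) and Col1a1 (102), while Pdgfra had 7, Dcn 1 and Lum 0. Fn1 (fibronectin, chr1:71585520-71653200) had a lowest, median and highest level of 0, 18 and 59.8 CPM in control and 54.9, 105 and 373 CPM in DN libraries, and rose by 2.66 ± 0.33 (adjusted p = 4.13e-05). In plain CPM the highest control library was at 78.6 and the lowest DN library at 50.8. Fn1 passed at 6 weeks (2.5, adjusted p = 0.0107) and at 12 weeks (2.83, adjusted p = 0.0092), and 8.44% of control and 38.0% of DN cells held a UMI.

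Mgp (chr6:136872435-136875823) went from 1500 to 3290 CPM over the control libraries to 1410 to 11600 CPM over the DN libraries, with means of 2100 ± 622 and 5730 ± 3380 CPM (1.31 ± 0.28, adjusted p = 0.019). DN libraries varied widely, and the lowest lay below every control. Mgp also went with renin across the tiers, which held 101, 48, 55 and 33 DN and 80, 43, 24 and 14 control cells from lowest to highest. The part of this makeup in the change of Mgp was not tested. Ctgf, a matricellular growth factor, changed by 1.74 at 12 weeks (adjusted p = 0.00473) and stood at 0.01 at 6 weeks. For the mean of ages Ctgf had means of 398 ± 252 and 606 ± 185 CPM (0.87 ± 0.20, adjusted p = 0.025). The list's most abundant members were Igfbp7 (4690 ± 985 and 7020 ± 1360 CPM, 0.50, adjusted p = 0.285), Mgp and Sparcl1 (0.23, adjusted p = 0.746). Col18a1 (0.59, adjusted p = 0.101) and Serpine2 (0.66, adjusted p = 0.135) were not called.

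Outside that list, Ecm1, extracellular matrix protein 1, went from 120, 184 and 449 CPM (lowest, median and highest control library) to 378, 468 and 661 CPM (1.13 ± 0.22, adjusted p = 0.0119). Fstl1, a secreted follistatin-like protein, went from 48.8, 120 and 168 CPM to 192, 226 and 266 CPM with no overlap (0.83 ± 0.20, adjusted p = 0.0391). Cp (ceruloplasmin, the copper-carrying ferroxidase) rose by 2.24 (adjusted p = 0.0391) from a mean of 10.2 to 78.5 CPM, and Apoe, the lipoprotein, by 1.86 ± 0.44 (adjusted p = 0.0339) from 39.6 ± 19.1 to 143 ± 135 CPM.

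Aldh1a2 (chr9:71215789-71296243), which makes retinoic acid, was at 0 CPM in all 7 control libraries. In DN it was at 41.1, 105, 14.1 and 12 CPM at 6 weeks and at 46.6, 87.4, 128 and 91.8 CPM at 12 weeks, so every DN library held it. Control cells held 0 UMIs in 154 cells, and DN cells held 151 UMIs in 32 of 237 cells (13.5%). Single DN libraries held from 2 to 54 of these UMIs, and 35.8% came from 1 library. Against a floor of 3 counts over the control group (3.22 CPM), the DN level was at least 19.8-fold higher. The call held for the mean of ages (adjusted p = 4.13e-05), 6 weeks (adjusted p = 0.0153) and 12 weeks (adjusted p = 0.00336). Barcodes with Cubn UMIs, which are proximal tubule and should lack it, held a UMI in 1.62% of control and 1.82% of DN cases at median depths of 12200 and 13700 UMIs. Mesangial cells held one in 8.75% and 33.1%.

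Cpe (chr8:64592542-64693054), the prohormone protease of secretory granules, did not overlap between genotypes. It was at 209, 224, 320 and 469 CPM in 6-week controls and 368, 134 and 318 CPM in 12-week controls. In DN it was at 672, 641, 722 and 635 CPM at 6 weeks and 606, 495, 502 and 578 CPM at 12 weeks. It rose by 0.95 ± 0.20 (adjusted p = 0.0167) and was the 1 call among 20 tested secretory granule and lysosome genes, of which 17 had a positive fold change (list median 0.171). Over all genes tested 0.65% were called higher and the median was -0.014. The most abundant genes of the list were Laptm4a (0.17), Ctsb (552 ± 492 and 607 ± 271 CPM, 0.28) and Lamp1 (0.33, adjusted p = 0.504). Man2a1, a mannosidase of the Golgi, rose by 1.36 (adjusted p = 0.0225).

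Single calls among glycolysis and contractile genes stand beside 0.65% of all genes called higher. Ldha, which turns pyruvate to lactate, went from 29.9, 77.5 and 184 CPM to 178, 214 and 253 CPM (0.98 ± 0.21, adjusted p = 0.0169), and was the 1 call of 15 tested glycolysis genes (median 0.206, 11 positive). Gapdh (0.29), Gpi1 (0.17) and Pkm (0.35) were not called. Eno3, which that list does not hold, rose from 160 ± 60.9 to 343 ± 119 CPM (1.03 ± 0.21, adjusted p = 0.0129). Cnn1 was the 1 call of 22 contractile genes (308 ± 138 and 652 ± 214 CPM, 0.99 ± 0.23, adjusted p = 0.0339, list median 0.12). Acta2 (10000 ± 2470 and 13600 ± 4690 CPM, 0.33 ± 0.19, adjusted p = 0.588), Tagln (0.01), Myl6 (0.05) and Myh11 (3390 ± 1380 and 3600 ± 1450 CPM, 0.00) were not called.

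Trem2, a lipid-sensing receptor best known from macrophages, was at 0, 14.7 and 29.9 CPM (lowest, median and highest) in control and 27.4, 57.3 and 142 CPM in DN libraries (2.51 ± 0.46, adjusted p = 0.00543). It had a UMI in 8 of 154 control cells (5.19%) and 59 of 237 DN cells (24.9%), against 0.592% and 1.16% of Cubn barcodes. It was also found in low-renin smooth muscle cells (0.69% and 9.5%). Of the immune markers, C1qa had 0 UMIs in the juxtaglomerular cells, Tyrobp 1, Lyz2 4, H2-Ab1 8 and Cd74 42. The rule itself required 0 UMIs of Ptprc, and whether immune RNA contributed to Trem2 was not tested. F2r, the thrombin receptor PAR1, rose by 1.36 (65.2 ± 47 and 205 ± 86.6 CPM, adjusted p = 0.0339) and Tnfrsf12a, the receptor of the cytokine TWEAK, by 1.66 (adjusted p = 0.0225). The transcription factor Cebpb rose by 1.11 (110 ± 33 and 275 ± 120 CPM, adjusted p = 0.0247).

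The other increases were Gm12840, a non-coding transcript (1.86 ± 0.29, adjusted p = 0.000666), Fam129a (1.31, adjusted p = 0.0154), Msrb1, which repairs oxidised methionine (0.93, adjusted p = 0.0376), Fxyd5, a sodium pump regulator (1.84, adjusted p = 0.0426), and Krt19. Krt19, an epithelial keratin, had 0 UMIs in control and 159 UMIs in 16 DN cells (6.75%), at least 20.9-fold higher, but 62.3% of them came from 1 library and 67 from 1 cell (adjusted p = 0.0364). Tuba1a rose at 12 weeks (1.54, adjusted p = 0.0199).

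Among the genes lower in DN, Dgkb (chr12:37817726-38634239), a kinase that removes the second messenger diacylglycerol, was at 299, 416 and 490 CPM (lowest, median and highest) in control and 117, 191 and 311 CPM in DN libraries, and fell by 1.05 on the log2 scale (SE 0.19, adjusted p = 0.00436). Trpc1, a cation channel, went from 120, 228 and 294 CPM to 46.6, 130 and 175 CPM (-0.88 ± 0.20, adjusted p = 0.0285). The ranges overlapped for both genes, for Dgkb only between 299 and 311 CPM. Ntm, a cell adhesion protein, went from 67.1 ± 46 to 20.8 ± 11.6 CPM (-1.86 ± 0.37, adjusted p = 0.0129), and Lmo1, a transcription cofactor, from 245 ± 85.8 to 138 ± 68.1 CPM (-1.02 ± 0.21, adjusted p = 0.0133). Rasl11a (-0.86), Gm13861 (-1.03), Ndst3, a heparan sulfate enzyme (-1.02), the phospholipid flippase Atp8a1 (-1.10), Nrip2 (-0.86) and the centromere histone Cenpa (-0.78) also fell, with adjusted p of 0.0222 to 0.0465.

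Some tubule genes were among the decreases, and the summed tubule markers given above, whose ranges overlapped and which were not tested, had lower medians in DN. Kap (chr6:133849851-133853762), an androgen-regulated protein of proximal tubule, was at 0, 75.9, 1180 and 1960 CPM in 6-week controls and 80.9, 524 and 1690 CPM in 12-week controls. In DN it was at 13.7, 15.5, 33.8 and 347 CPM at 6 weeks and 0, 38.8, 103 and 358 CPM at 12 weeks. Every control male was above every DN library, and the control females lay within the DN range. The decrease was 2.56 on the log2 scale (-2.56 ± 0.41, adjusted p = 0.000865). In barcodes with Cubn UMIs the median Kap level was 23600 CPM in control and 3360 CPM in DN libraries, and in low-renin smooth muscle cells Kap changed by -2.38 (adjusted p = 0.00603).

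Klk1, tissue kallikrein of the distal nephron, fell by 2.54 (438 ± 416 and 67.2 ± 59 CPM, adjusted p = 0.00734), and its reads can be shared with near-identical kallikrein genes. Miox (-2.06, adjusted p = 0.0345), Acsm2 (-2.34, adjusted p = 0.0471) and Tmem213 (-1.57, adjusted p = 0.019) fell too. Of 8 proximal tubule markers tested, Kap, Miox and Acsm2 fell and none had a positive fold change (median -1.383). Over all genes tested 0.375% were called lower and the median was -0.014. Of 7 markers of other tubule none was called (median -0.884, 0 positive). Whether tubule RNA in the suspension accounts for these 5 decreases was not tested. When cells with a UMI of Lrp2, Slc12a1, Slc12a3 or Aqp2 were also left out, 9 of the 41 calls remained, namely S100a6, Fn1, S100a4, Gm12840, Kap, Klk1, Ecm1, Fam129a and Cpe.

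**Figure D4:**
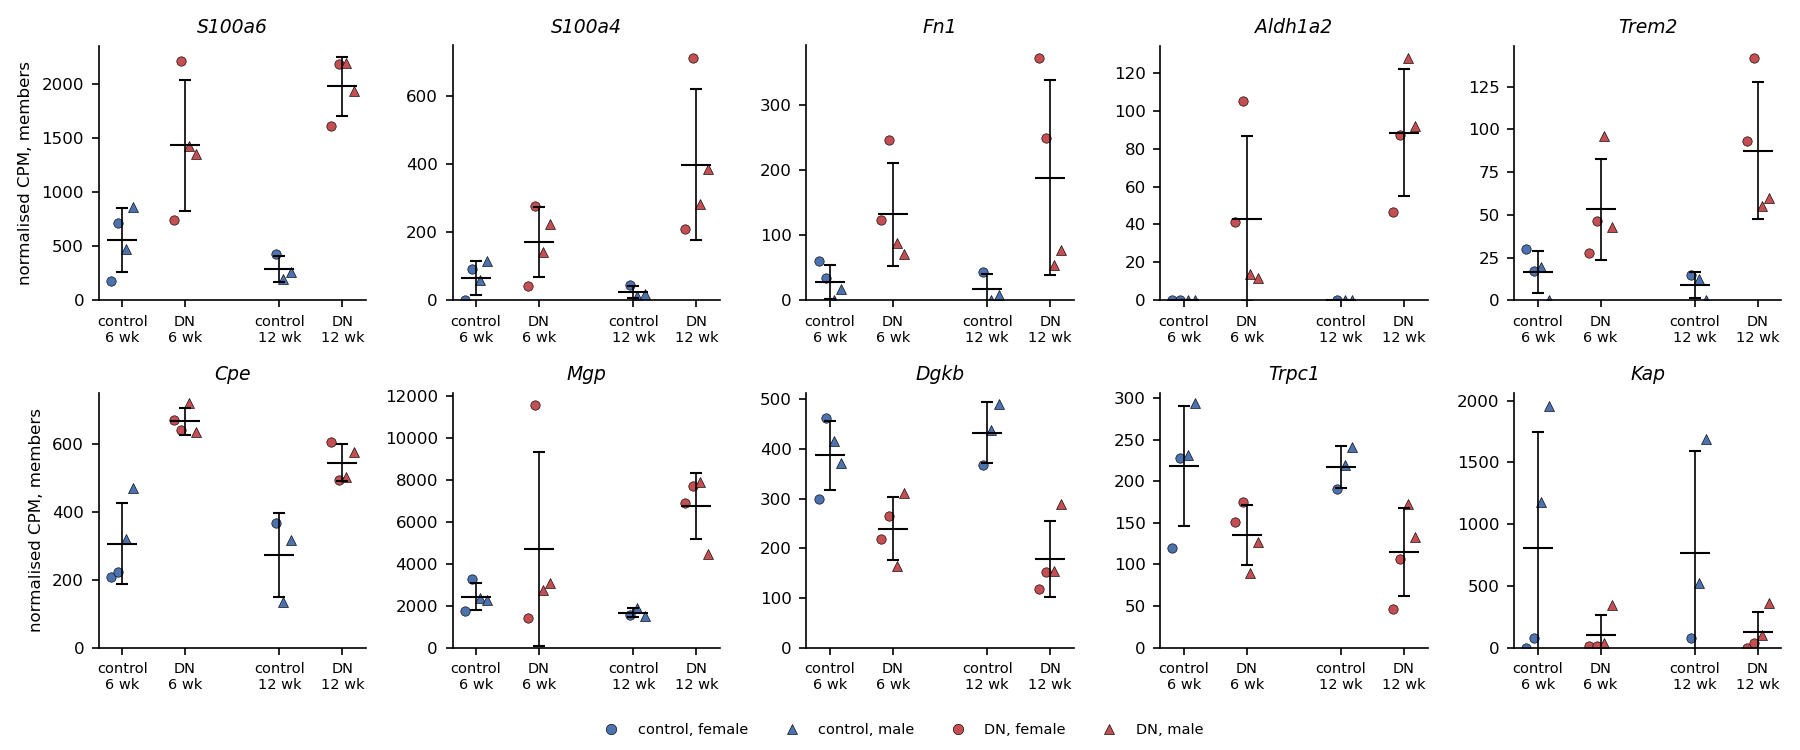
Normalised CPM of 10 genes in juxtaglomerular cells, with 1 point per library (7 control, 8 DN), circles female, triangles male, and mean and SD bars by genotype and age. S100a6, Fn1 and Cpe were higher in DN, Aldh1a2 was at 0 in every control library, and Dgkb and Trpc1 were lower. Kap was highest in the control males, with the control females within the DN range.

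Lists of renin control had 0 calls, where 1.02% of all genes tested were called, so that these counts are near the background. Of 11 renin cell identity genes tested outside the rule 0 were called (median -0.209, 3 positive), 0 of 4 renin-angiotensin genes (median -0.009), 0 of 10 cyclic AMP receptors and cyclases (median -0.159), 0 of 12 cyclic AMP kinases and nuclear factors (median 0.059), 0 of 14 renin-inhibiting signals (median 0.003) and 0 of 7 nitric oxide and cyclic GMP genes (median -0.237). Gja5 was at 79.1 ± 62.8 CPM in control and 171 ± 87.8 CPM in DN (0.79 ± 0.33, adjusted p = 0.332) and Gja4 at 110 ± 45.4 and 154 ± 54.3 CPM (0.48, adjusted p = 0.611). Their libraries overlapped. Crip1, a LIM protein of renin and muscle cells, was at 5580 ± 1840 and 10100 ± 4500 CPM (0.66 ± 0.19, adjusted p = 0.104).

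Receptor and second messenger genes were not called either. Agtr1a was at 114 ± 41.7 and 125 ± 26.5 CPM, with a fitted change, adjusted for age and sex, of the opposite sign (-0.10, adjusted p = 0.949), the endothelin receptor Ednra at 177 ± 70.4 and 153 ± 45.7 CPM (-0.32) and Ednrb at 269 ± 134 and 398 ± 167 CPM (0.54, adjusted p = 0.434). Gnas was at 1450 ± 180 and 1210 ± 260 CPM (-0.34 ± 0.16, adjusted p = 0.471). Pde3a, which degrades cyclic AMP, was at 361 ± 112 and 415 ± 120 CPM (0.08), and the prorenin receptor Atp6ap2 at 96.7 ± 27.9 and 109 ± 34.7 CPM (0.16). Adrb1 (7.47 ± 8.84 and 10.5 ± 12.5 CPM), Pde3b (4.49 and 4.62 CPM) and the prostaglandin receptor Ptger4 (8.07 and 11.5 CPM) were below the count filter. Adrb1 had a UMI in 3.9% of control and 7.17% of DN cells, against 1.1% and 0.666% of Cubn barcodes. Enpep, the aminopeptidase that degrades angiotensin II, Prkar1a, a cyclic AMP kinase subunit, and the inhibitory G protein Gnai2 had fold changes of -0.26, 0.28 and 0.04.

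Akr1b7, which the rule uses, was at 2060 ± 396 CPM in control and 1870 ± 817 CPM in DN libraries, and Rgs5 at 3060 ± 1000 and 3920 ± 551 CPM. The soluble guanylate cyclase subunits Gucy1a1 (-0.24, adjusted p = 0.72) and Gucy1b1 (-0.51, adjusted p = 0.231), through which nitric oxide raises cyclic GMP, and the natriuretic peptide receptor Npr1 (0.13, adjusted p = 0.924) were not called. Pde1a (-0.23), Akap12 (-0.03), Crtc3 (-0.30) and Itpr1 (-0.29), the next most abundant members of their lists, had adjusted p of 0.679 to 0.994.

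The remaining lists gave few or no calls, where 1.02% of all genes tested were called with a median of -0.014. Endoplasmic reticulum folding had 0 of 28 called (median 0.156, 21 positive), with Hspa5 at 500 ± 372 and 631 ± 360 CPM (0.48), Hsp90b1 at 0.18 and Sec61g at 0.11. Nuclear oxidative phosphorylation genes had 0 of 53 (median 0.002; Cox8a -0.29, Cox6c -0.06, Atp5l 0.14), and the mitochondrial genome 0 of 13 (median -0.238; mt-Atp6 -0.02, mt-Co3 -0.08, mt-Co2 -0.15). Mural genes had 0 of 16 (median -0.152; Ndufa4l2 -0.13), immediate early and stress genes 0 of 20 (median -0.187; Jund -0.27, Hspb1 0.58, Jun -0.46), insulin and hormone receptors 0 of 10 (median -0.145; Igfbp5 0.32, Igf2r 0.03, Thra -0.38) and interferon genes 0 of 6 (median 0.115; Ifitm3 0.03, B2m 0.46, H2-D1 0.12). Steroid and lipid genes had 1 of 7 (Apoe, median -0.049; Lpl -0.05).

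Among cell type marker lists, mesangial markers had 0 of 9 called (median 0.169; Serpine2 at 742 ± 168 and 1230 ± 382 CPM, Hopx -0.27, Itga8 at 186 ± 68 and 269 ± 126 CPM, 0.47), fibroblast 0 of 2 (median 0.43; Gsn 0.41, Col1a2 0.45), endothelium 0 of 3 (median 0.354; Esam 0.35), podocyte 0 of 1 (Synpo 0.04) and mitotic genes 0 of 1 (Tubb5 0.36). No immune or erythroid marker had enough counts to be tested. Among the most abundant members of the tubule lists, those not called included Gpx3 (-0.36), Calb1 (-0.88), Spp1 (-0.44) and Defb1 (-1.41, adjusted p = 0.0889).

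At 6 weeks the 3 calls were Fn1, Aldh1a2 and Kap, and none of the 3 was still called when cells with a UMI of the 4 further tubule genes were also left out. Next in order, and not called, were Cpne2 (-1.27, adjusted p = 0.181) and Rasl11a (-1.10, adjusted p = 0.191). No gene passed for a difference of the DN effect between the ages (0 of 4002, 0.0%, against 138 at an unadjusted p under 0.05 and 0 called by DESeq2). The replicate block, the batch as a term and the fit without a count filter did give calls, as counted below. Npnt (-2.65) and Ctgf (1.73), each with an adjusted p of 0.344, were nearest in the reported fit. In that fit the larger values at 12 weeks given above were thus not shown to differ from those at 6 weeks.

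The DN effect was then compared with that in the other mural classes of the same libraries, with the library as a block. Against low-renin smooth muscle 6 of 7055 genes (0.085%) differed, and all 6 are named, chosen after their values were seen. DESeq2 called 1 gene. Of 16 alternatives, Ntm was called in 16, Mgp in 15, Eno3 in 10, Pcdh17 in 9, and Eln and Fabp5 in 8 each. Mgp changed by 1.31 in juxtaglomerular and 0.21 in low-renin smooth muscle cells (difference 1.08 ± 0.17, adjusted p = 2.49e-05). The part of the makeup by Ren1 tier in this difference was not tested. Ntm fell in juxtaglomerular cells (-1.86) and was at 0.66 in smooth muscle (difference -2.63 ± 0.37, adjusted p = 1.68e-06). Eno3 rose less in juxtaglomerular cells than in low-renin smooth muscle (1.03 against 2.48, difference -1.28 ± 0.27, adjusted p = 0.0133). Pcdh17 (difference 2.34, adjusted p = 0.0158), Eln, elastin (1.62, adjusted p = 0.0244) and Fabp5, a fatty acid carrier (-1.54, adjusted p = 0.0264) made up the rest. S100a6 (1.66 in smooth muscle), S100a4 (1.99) and Trem2 (3.91, adjusted p = 0.000625) moved the same way there and did not pass the test of a difference.

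Against mesangial cells 154 of 8292 genes (1.86%) differed, 83 with the higher and 71 with the lower effect in juxtaglomerular cells. The 10 with the smallest adjusted p, named after their values were seen, held mostly genes that rose in mesangial cells and not in juxtaglomerular cells. Tagln was at 0.01 in juxtaglomerular and 2.42 in mesangial cells (difference -2.33, adjusted p = 2.16e-19) and Acta2 at 0.33 and 2.56 (difference -2.07, adjusted p = 9.59e-19). The immediate early gene Fos was at -0.24 and 1.98 (difference -2.12, adjusted p = 4.47e-16), Cyr61, a matricellular protein related to Ctgf, at -0.29 and 1.84 (difference -2.08, adjusted p = 8.14e-20), and Ogn, a small leucine-rich proteoglycan, at 0.06 and 4.43 (difference -4.45, adjusted p = 8.14e-20).

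Limch1 (-0.13 and 2.47, difference -2.38), Nbl1, a BMP antagonist (difference -2.69), Cenpa (-0.78 and 2.35, difference -3.04) and Pi15 (difference -2.5) followed the same pattern, with adjusted p of 1.45e-23 to 8.57e-13. Mgp was the 1 of the 10 with the opposite sign. It rose in juxtaglomerular cells (1.31), was at -1 in mesangial cells, and had a difference of 2.67 (adjusted p = 1.31e-31). All 10 were called in each of 16 alternatives (DESeq2, and edgeR with each of 15 libraries left out). Over these the Mgp difference ranged from 1.74 to 3.63, with an adjusted p of up to 0.0176. The size of the p-values thus depended strongly on the tool and libraries. The control libraries are shared between the classes. The median difference over all genes was 0.119.

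**Figure D5:**
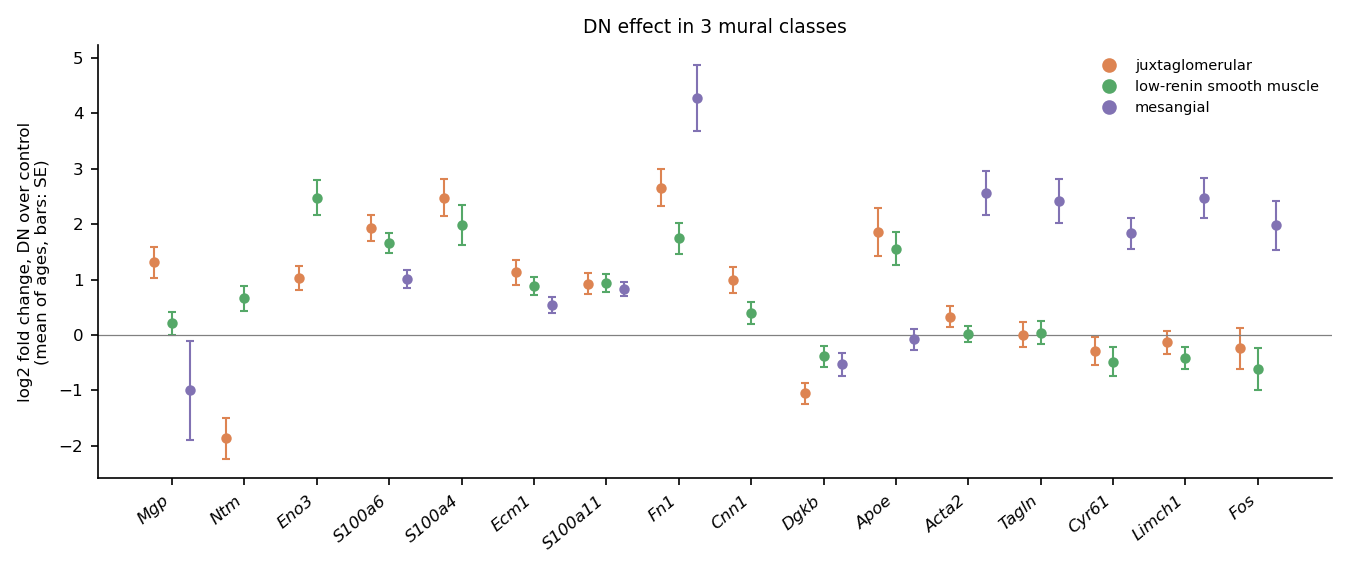
DN over control log2 fold change (mean of ages) with SE for 16 genes in juxtaglomerular, low-renin smooth muscle and mesangial cells, with no point where a gene was not tested in a class. Mgp rose in juxtaglomerular cells and was at -1 in mesangial cells, whereas Acta2, Tagln, Cyr61 and Fos were at 1.84 to 2.56 in mesangial cells and between -0.29 and 0.33 in juxtaglomerular cells.

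Age alone gave no calls (0 of 4002, 0.0%, with 123 at an unadjusted p under 0.05 and 1 called by DESeq2). Hspa5 had the smallest p and was lower at 12 weeks by 0.97 on the log2 scale (-0.97 ± 0.22, adjusted p = 0.76), with Ctgf (-0.77) and Manf (-1.08) next at an adjusted p of 0.971. Of the 28 endoplasmic reticulum folding genes tested, 2 had a positive fold change with age, the median was -0.356, and 9 had an unadjusted p under 0.05.

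Sex gave 8 calls (0.2%), of which 4 are sex-linked and check the labels. The smaller batch held only females and the fit had no batch term, so sex and batch cannot be fully told apart for the other calls. In 7 female against 8 male libraries Xist was at 1020 ± 242 against 0 CPM (adjusted p = 9.51e-13), Tsix at 50.2 against 0 (adjusted p = 6.74e-05), Ddx3y at 0 against 97.7 ± 21.9 (adjusted p = 1.55e-07) and Eif2s3y at 0 against 76.0 ± 17.1 CPM (adjusted p = 1.9e-06). Kap was higher in males at 32.1 ± 34.2 against 776 ± 741 CPM (3.75 ± 0.47, adjusted p = 2.47e-05). Fn1 was higher in females at 162 ± 130 against 39.9 ± 37 CPM (-1.88 ± 0.26, adjusted p = 9.96e-05), as were Gm12840 (322 ± 293 against 127 ± 89.7 CPM, -1.35, adjusted p = 0.0069) and Tmem258 (189 ± 48.1 against 102 ± 45.2 CPM, -0.98, adjusted p = 0.0341). Of the alternatives, Kap was called in 29 of 30, Fn1 in 27 of 29, Gm12840 in 27 of 30 and Tmem258 in 11 of 29. When cells with a UMI of the 4 further tubule genes were also left out, Fn1 stood at 0.04 and Gm12840 at 0.08 for this contrast. The sex differences of Fn1 and Gm12840 thus did not hold in that setting.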

How the data were processed

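Kidney suspensions enriched for glomeruli were profiled by droplet-based 3′ single-cell RNA sequencing, 1 library per mouse in 16 mice. The authors deposited raw UMI counts per gene and barcode, made with Cell Ranger 3.0.2 on mm10 per the submitters' processing notes, with kits of versions 2 and 3 but no record of which library had which. The counts were whole numbers with no normalization and held from 10510855 to 125551519 UMIs per library. Their cell-level test (MAST) was not used.

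Barcodes meeting the rule were summed per library and tested with edgeR 4.0.16 in R 4.3.3 (quasi-likelihood, TMM, filterByExpr with a minimum count of 10, terms for age, sex within age and genotype within age, libraries with at least 10 cells, Benjamini-Hochberg threshold 0.05). DESeq2 1.42.0 was an alternative. Differences of the DN effect between cell classes used the library as a block. Shares and Ren1 totals used exact permutation tests (scipy 1.17.1) with genotype labels permuted within sex and age for both ages together and without strata within one age. The fit within juxtaglomerular cells was also run on simulated counts with known changes, and the outcome is not reported here. Intervals of counts cover counting error only.

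The members and gene lists were chosen with earlier results of these data known. Genes were named by rule: in each genotype comparison the 10 called higher and the 10 called lower with the smallest adjusted p (with fewer than 5 calls, the 5 with the smallest p), for age and sex 5 each way, in each of 27 lists every call and the 3 most abundant genes, the 20 leading genes and 17 genes of renin control and muscle. Calls outside the rule were all named for the mean of ages. Alternatives varied the scaling, count filter, cells per library, renin threshold, lineage and mitochondrial limits, depth, batch, replicate block and tool, and left out each library. Whether counting used strand was not given in the sources used here, so antisense partners such as Xist and Tsix are uncertain. Promoter sequences are those of RefSeq on GRCm38.p6. One of the most abundant listed genes is not reported here.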

Additional observations from a re-analysis of the deposited data

Results flagged for a closer look

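In 136 groups of 4 libraries, 9 held a library far from the other 3 by Dixon's test, and chance flags about 1 in 20 groups. Levels are normalised CPM, except those of Ren1, which are plain CPM. Within DN mice of 6 weeks, Ren1 in juxtaglomerular cells was 36500 CPM in male replicate 1 against 55800 to 59300 in the others, Mgp was 11600 CPM in female replicate 2 against 1410 to 3090, Kap was 347 CPM in male replicate 2 against 13.7 to 33.8, and Acsm2 was 0 CPM in female replicate 1 against 11.3 to 13.6. Within DN mice of 12 weeks, Gm12840 was 948 CPM in female replicate 2 against 163 to 289. Within control mice of 6 weeks, female replicate 1, with 10 cells, held Fxyd5 at 59.8 CPM against 9.68 to 17.2, Msrb1 at 120 CPM against 214 to 228 and Rasl11a at 120 CPM against 291 to 321, and female replicate 2 held Cp at 34.5 CPM against 0 in the others.

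The DN effect differed between juxtaglomerular and low-renin smooth muscle cells by the test of the difference for Ntm (-2.63), Mgp (1.08), Eno3 (-1.28), Pcdh17 (2.34), Eln (1.62) and Fabp5 (-1.54), as log2 differences. Against mesangial cells the 10 with the smallest p were Mgp (2.67), Limch1 (-2.38), Ogn (-4.45), Cyr61 (-2.08), Tagln (-2.33), Acta2 (-2.07), Nbl1 (-2.69), Fos (-2.12), Cenpa (-3.04) and Pi15 (-2.5). Eln was at 1.49 in juxtaglomerular cells (adjusted p = 0.154) and at -0.10 in low-renin smooth muscle, so its difference passed the test where its own change in juxtaglomerular cells did not.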

How the results depend on the processing

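Depth limits the gene results: 154 control and 237 DN cells in 15 libraries left 4002 genes testable. All 41 genes called for the mean of ages kept their direction in every alternative in which they could be tested (27 of 41 after thinning, 39 to 41 in the others), but only S100a6, Gm12840 and Kap were called in every one, and the cause of the losses was not tested.

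Counts of calls are given in the order 6 weeks, 12 weeks and mean of ages (3, 14 and 41 as reported). They were 12, 78 and 122 with no count filter, 10, 51 and 101 with the batch as a term, 6, 47 and 97 in the larger batch alone, and 6, 5 and 20 at a mitochondrial limit of 10%. DESeq2 gave 34 at 12 weeks and 70 for the mean of ages. At 12 weeks and for the mean of ages, Ren1 of at least 1% gave 3 and 11 (0 and 8 of the reported calls among them). With 4 more tubule genes at 0 there were 6 and 13 (3 and 9), with 3 other genes at 6 weeks. At least 20 cells per library left only 1 control library of 12 weeks, a male with 35 cells, so no counts are given for that setting. Ren1 of at least 0.2% gave 1 at 6 weeks and 28 at 12 weeks. Cells thinned to 2000 UMIs gave 0 at 6 weeks and 12 for the mean of ages (7 of the 41 reported calls among them). The DN effect differed between ages for 1 gene without a filter and 2 with the batch as a term. Age gave 1 call by DESeq2. Sex (8 as reported) gave 20 by DESeq2, 40 without a filter, 14 with the batch as a term, 18 in the larger batch, 18 at Ren1 of at least 1% and 3 after thinning, and its Fn1 and Gm12840 effects reversed to 0.04 and 0.08 with 4 more tubule genes at 0. By DESeq2 the DN effect differed from low-renin smooth muscle for 1 gene and from mesangial cells for 61. The fit at Ren1 of at least 5% could not be fitted.

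With the replicate block the counts were 38, 129 and 197, and 10 genes differed between ages. Same-numbered libraries correlated from -0.27 to 0.56, so not every pair was above 0.1 and the numbers were not taken to pair the samples, although in females replicate 1 was the smaller batch. The block kept all 41 calls. With it the exact permutation p, not adjusted over the tests, was 0.0156 for the share and 0.00781 for Ren1 over all barcodes. Without it these were 0.0278 and 0.00154.

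Leaving out 1 library gave 0 to 6, 3 to 24 and 13 to 68 calls, 0 to 0 for the difference between ages, 0 to 1 for age, 6 to 12 for sex, 3 to 12 against low-renin smooth muscle and 107 to 165 against mesangial cells. The mean of ages gave 68 without DN female 6 weeks replicate 1 or DN female 12 weeks replicate 1, 22 and 13 without control female and male 12 weeks replicate 2, and 24 to 27 without DN female 12 weeks replicate 2, either DN male of 6 weeks or DN male 12 weeks replicate 1. At 12 weeks it gave 22 and 24 without the same first pair, 3 and 7 without the same controls, and 6 without DN female 12 weeks replicate 2 or DN male 12 weeks replicate 1. At 6 weeks it gave 0 without replicate 2 of either female group and 6 without DN female replicate 1. Against low-renin smooth muscle it gave 11 and 12 without control female replicate 2 of 6 and 12 weeks, and 3 without control male 6 weeks replicate 1 or DN male 12 weeks replicate 2.

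The share difference was 0.603 points over barcodes without Cubn and Epcam (unadjusted exact permutation p = 0.133) and 0.287 to 0.473 with 1 library left out. Unadjusted exact permutation p was above 0.05 without control female (0.0664) or male (0.0571) 12 weeks replicate 1. The same held without DN female 6 weeks replicate 1 (0.0509) or 2 (0.0895). At Ren1 of at least 0.2%, 1% and 5% the share difference was 0.435, 0.352 and 0.215 points (unadjusted exact permutation p = 0.0432, 0.00617 and 0.00154). Per juxtaglomerular plus low-renin smooth muscle cell, a denominator chosen after seeing the data, it was 11.8 points (exact permutation p = 0.00463). The Ren1 difference over all barcodes ranged from 1.30 to 1.71, with an unadjusted exact permutation p under 0.05 in every alternative run.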

Other observations

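Across the tiers of Ren1 share, further lists are given as ratios of the level above 10% renin to that under 2% on cells pooled over libraries, with no test. Steroid and lipid genes had a median ratio of 1.41 (6 of 10 genes above 1), interferon and antigen presentation genes 1.29 (5 of 6), glycolysis genes 1.11 (11 of 15) and immediate early genes 1.06 (13 of 20). Insulin and hormone receptors had a median of 0.657 (3 of 11 above 1). Gadd45b, a stress-responsive gene, stood at 30.8 CPM (Ren1 left out of the total) in the lowest and 206 in the highest tier and was higher in 10 and lower in 2 of 15 libraries. S100a6, which rose in DN, stood at 1340 and 1580 CPM in the same tiers.

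Barcodes with Ren1 at 0.1 to 0.5% of UMIs that met the other criteria numbered 236, and proximal tubule barcodes with Cubn UMIs held Ren1 at 0.461 to 83.7 CPM per library, below the level over all barcodes in 16 of 16 libraries. Free RNA in the suspension was not tested as the source of either.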
